A study of Mus musculus with 34 samples.

Results

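Livers of male PiZ mice were set directly against livers of male wild-type (WT) mice taken 2 hours after an injection of TNFa, with no wild-type vehicle library in the comparison. PiZ mice carry a human transgene for alpha-1 antitrypsin, the plasma inhibitor of neutrophil elastase, in its Z form, which misfolds and polymerizes within the endoplasmic reticulum (ER) of hepatocytes. The comparison used 11 of the 34 libraries of the series: 5 from PiZ mice given the vehicle PBS and 6 from WT mice given TNFa, all of mice 3 months old and all under a single batch label. Libraries were chosen by their labels alone. Genotype, injected agent and time differ together between the groups and cannot be told apart. The dose of TNFa, the strain of either group and the promoter of the transgene were not among the labels. The table held 0 genes with the human symbol SERPINA1, so the transgene itself was not measured. The labels do not state that each library came from a separate mouse, so p-values measure the spread between these libraries, which may be technical.

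TNFa binds its receptors on hepatocytes, endothelial cells and macrophages and frees the NF-kB transcription factors from their inhibitors within minutes. Early target genes encode chemokines, adhesion molecules and the inhibitors that end the signal. In PiZ liver the polymers persist, and NF-kB signalling, matrix deposition and regeneration of hepatocytes are known features of that chronic state. The comparison therefore places an acute cytokine response beside a persistent one, and asks which inflammatory genes stood higher in which.

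After TNFa, the genes of the 5 NF-kB subunits, of the inhibitor A20 (Tnfaip3), of the chemokines Cxcl10, Cxcl2 and Ccl2, of the adhesion molecules Sele and Icam1 and of inducible nitric oxide synthase (Nos2) were higher than in PiZ liver. In PiZ liver, 26 of 35 tested type I interferon genes and 7 of 10 MHC class II genes were higher. So were 8 of 12 chemokine receptors and 21 of 27 markers of recruited macrophages. Of all genes tested, 22.2% were called higher in PiZ and 8.53% after TNFa by the same rule, given below. The widest differences among the inflammatory genes were those of Nos2, higher after TNFa by 6.59 ± 0.60 log2 units, and Serpina3f, a protease inhibitor, higher in PiZ by 6.00 ± 0.23. Here and below ± after a difference is its standard error, and levels are log2 CPM, the log2 of reads per M reads of the library. Levels of different genes are not compared, because CPM does not correct for gene length.

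The libraries held 35.5 to 50.4 M reads in PiZ and 37.3 to 47.3 M after TNFa. Between 97.3% and 97.8% of reads lay on protein-coding genes. PiZ libraries had 12768 to 13202 genes above 1 CPM and TNFa libraries 11753 to 11995, ranges that did not overlap. Mitochondrial transcripts took 5.0% to 9.7% of reads in PiZ 1, 2, 3 and 5, 19.9% in PiZ 4, and 7.7% to 15.3% after TNFa. Hepatocyte markers were abundant in every library: Alb (albumin) lay between 15.43 and 16.19 log2 CPM and Hnf4a, a hepatocyte transcription factor, between 8.72 and 9.39. The first principal component held 70% of the variance and separated the groups, with WT TNFa 4 at 38.9, the lowest of the TNFa libraries (38.9 to 67.7), and PiZ at -81.1 to -58.3.

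Of 12794 genes tested with limma, 6245 (48.8%) were higher in PiZ and 1091 (8.53%) were higher after TNFa at an adjusted p under 0.05 on the deposited scale. The median difference over all genes was 0.39 log2 units toward PiZ on that scale. With each library shifted to the same median, 2839 (22.2%) were higher in PiZ and 2979 (23.3%) after TNFa. In what follows a gene is called higher only where it passed on both scales in the same direction, which left 2839 (22.2%) for PiZ and 1091 (8.53%) for TNFa. Those 2 shares are the background for the counts below. Without WT TNFa 4 they were 23.8% (3048 genes) and 9.53% (1219 genes), and without PiZ 4 they were 21.8% and 8.19%. WT TNFa 4 was left out because it was already known to stand apart, so smaller adjusted p values without it are not stronger evidence. Libraries of the groups did not overlap at 3871 genes higher in PiZ (30.3%) and 520 higher after TNFa (4.06%). A gene was tested if above 0 log2 CPM in at least 5 of the 11 libraries, which 1 group alone could meet. Genes such as Cx3cr1, Il7r, Tlr9, Ubd, Cdc20, Ifi44, Oas1g, Cxcl14, Gbp2b, Slamf7 and Cd22 were below 0 in every TNFa library. Examples below 0 in every PiZ library were Nos2, Ngp, Ifi205, Gdpd3, Sbk2, Trim12a and Rims4. Such genes were tested only because 1 group was high. Shares of tested genes, in the lists and over all genes, carry that selection.

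The 18 inflammatory lists named 435 different genes, of which 356 passed the filter on low values. Of those, 102 (28.7%) were called higher in PiZ, beside 22.2% of all genes, and 82 (23%) after TNFa, beside 8.53% of all genes. Their median difference was 0.22 log2 units toward PiZ as deposited, beside 0.39 over all genes, and -0.19 after the shift, beside -0.02. Without WT TNFa 4 the counts were 102 (28.7%) for PiZ and 114 (32%) for TNFa. With the shift alone, without the demand for both scales, 102 were higher in PiZ and 124 after TNFa.

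**Figure D1:**
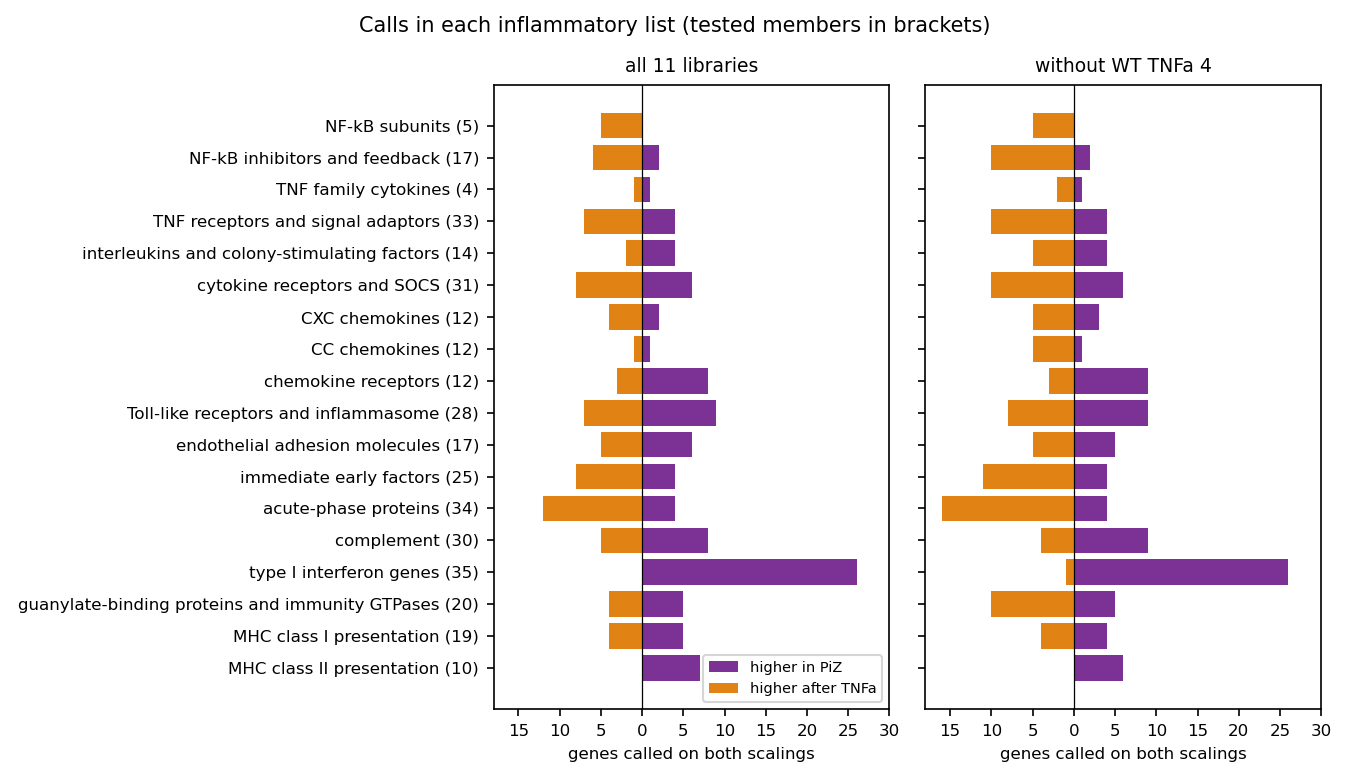
Number of genes called higher in PiZ liver (to the right) and after TNFa (to the left) in each of the 18 inflammatory lists, with all 11 libraries and without WT TNFa 4. The type I interferon list reaches 26 toward PiZ with both sets of libraries, and the acute-phase list goes from 12 to 16 toward TNFa when that library is left out.

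All 5 NF-kB subunit genes were higher after TNFa with the 11 libraries and without WT TNFa 4, and 4 of the 5 without PiZ 4. Relb, the partner of p52 in the non-canonical pathway, was at 5.16, 4.94, 3.32, 2.31 and 3.83 log2 CPM in PiZ 1 to 5 and at 3.24 to 6.59 (median 6.09) after TNFa. Nfkb2, the gene of p100 and p52, was at 5.22, 5.07, 4.01, 3.64 and 4.6 in PiZ and 4.00 to 6.71 (median 6.40) after TNFa. Nfkb1 (chromosome 3, 135584655 to 135691547), the gene of p105 and p50, was at 5.58, 5.45, 5.00, 4.62 and 5.12 in PiZ and 4.77 to 6.95 (median 6.64) after TNFa. For each of the 3 the lowest TNFa value was that of WT TNFa 4 and lay within the PiZ range, while the other 5 TNFa libraries lay above every PiZ library. The differences were 1.80 ± 0.62 log2 units (adjusted p = 0.0243) for Relb, 1.52 ± 0.45 log2 units (adjusted p = 0.012) for Nfkb2 and 1.26 ± 0.34 log2 units (adjusted p = 0.00676) for Nfkb1. Leaving out that library gave 2.29, 1.92 and 1.59. Relb was the subunit not called without PiZ 4. Rela, the main activating subunit, was higher after TNFa by 1.21 ± 0.33 log2 units (adjusted p = 0.0076), and Rel by 0.98 ± 0.32 log2 units (adjusted p = 0.0187).

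Among the inhibitors and feedback genes of NF-kB, 6 of 17 tested were higher after TNFa and 2 in PiZ. There were 10 and 2 when WT TNFa 4 was left out. Tnfaip3 (chromosome 10, 19000910 to 19015657) encodes A20, a ubiquitin-editing enzyme that shuts off signalling from the TNF receptor. It was at 5.26, 4.81, 4.27, 4.52 and 4.89 log2 CPM in PiZ 1 to 5 and at 4.37 to 8.19 (median 7.81) after TNFa. The lowest of those was WT TNFa 4 at 4.37, inside the PiZ range, and the other 5 lay at 7.68 to 8.19, above every PiZ library. The difference was 2.57 ± 0.57 log2 units (adjusted p = 0.0019) with all libraries and 3.16 (adjusted p = 3.8e-08) without WT TNFa 4. The smaller adjusted p follows from leaving out a library already known to stand apart and is not stronger evidence. Nfkbie, which encodes the inhibitor IkB-epsilon, was higher after TNFa by 2.27 ± 0.51 log2 units (adjusted p = 0.00206), and Nfkbia, which encodes IkB-alpha, by 1.54 ± 0.29 log2 units (adjusted p = 0.000557). Tnfaip2 differed by 1.90 ± 0.52 log2 units (adjusted p = 0.00721) in the same direction. The genes higher in PiZ were Tnfaip8, at 2.11 to 2.61 in PiZ and 0.65 to 1.73 after TNFa, and Otud7b, a deubiquitinase, at 4.65 to 5.21 and 3.96 to 4.39. Neither of these overlapped between the groups. Cyld, another deubiquitinase of the pathway, differed by 0.01 ± 0.14 log2 units as deposited and was not called. It passed toward TNFa on the shifted scale alone (adjusted p = 0.0289).

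Of the TNF family cytokines, 4 of 17 were expressed above the filter, and 1 was called in each direction. Tnf itself was at -0.60, -0.22, -1.24, 0.08 and -0.63 log2 CPM in PiZ 1 to 5 and at -1.37 to 2.45 (median 1.63) after TNFa. WT TNFa 4, at -1.37, was below all 5 PiZ libraries, and the other 5 TNFa libraries were above them. The difference was 1.91 ± 0.58 log2 units (adjusted p = 0.0124). Tnfsf12, which encodes the cytokine TWEAK, was higher in PiZ by 1.07 ± 0.20 log2 units (adjusted p = 0.000517), and its receptor Tnfrsf12a (Fn14) was also higher in PiZ, by 1.58 ± 0.43 log2 units (adjusted p = 0.0074). The call of Tnfsf12 ended without PiZ 4.

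Of 33 TNF receptors and signalling adaptors tested, 7 were higher after TNFa and 4 in PiZ, and 10 and 4 without WT TNFa 4. Ripk2 (chromosome 4, 16122733 to 16163647), the kinase that relays signals from the NOD receptors to NF-kB, was at 5.16, 4.05, 3.40, 2.20 and 2.87 log2 CPM in PiZ and 5.27 to 8.96 (median 8.80) after TNFa. Every TNFa library but WT TNFa 4 lay at 8.47 to 8.96, and WT TNFa 4 at 5.27 was just above the highest PiZ library. The difference was 4.66 ± 0.67 log2 units (adjusted p = 7.73e-05). Birc3 and Birc2, ubiquitin ligases that keep the TNF receptor complex from triggering cell death, were higher after TNFa by 2.43 ± 0.52 log2 units (adjusted p = 0.00158) and 1.92 ± 0.46 log2 units (adjusted p = 0.00346). Mlkl, which encodes the pore-forming effector of necroptosis, went the other way: it was at 3.64, 4.05, 4.32, 4.14 and 3.79 in PiZ and 0.62 to 1.46 (median 1.26) after TNFa. The groups of Mlkl did not overlap, and it was higher in PiZ by 2.79 ± 0.18 log2 units (adjusted p = 1.18e-07). The TNF receptors themselves were not called on both scales. Tnfrsf1b was higher in PiZ by 0.52 ± 0.20 log2 units and passed as deposited alone (adjusted p = 0.0425). Tnfrsf1a differed by 0.02 ± 0.16 as deposited and passed toward TNFa on the shifted scale alone (adjusted p = 0.00725).

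Chemokine ligands and their receptors divided between the groups. Cxcl10, Cxcl2, Cxcl11, Cxcl9 and Ccl2 were the 5 of 24 tested ligands that were higher after TNFa, and Cxcl14, Ppbp and Ccl6 the 3 that were higher in PiZ. Of 23 receptors listed, 11 lay below the filter. Among those with levels given below, Cx3cr1, Ccr2 and Cxcr4 passed it only because the PiZ libraries were high. Cxcr2 passed it only because the TNFa libraries were high. Of the 12 tested receptors, 8 were higher in PiZ and 3 after TNFa (Ccrl2, Ackr1 and Cxcr2). Those higher in PiZ included Cx3cr1, Ccr2, Cxcr4, Ccr1, Ccr3, Ackr3 and Ackr2. The median difference of the receptors was 1.86 log2 units toward PiZ as deposited and 1.45 after the shift. Without WT TNFa 4, 10 ligands were higher after TNFa and 4 in PiZ, and 3 receptors were higher after TNFa and 9 in PiZ. In bulk tissue, a higher level cannot be divided between more cells of a type and more RNA in each cell.

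The promoters of 6 inflammatory genes are shown because these genes had the widest differences with a promoter on record: Cxcl10, Cxcl2 and Ifi47 were higher after TNFa, and Serpina3f, H2-Eb1 and Ubd were higher in PiZ. Each sequence is the 250 bases before the gene's start in RefSeq (GRCm38.p6), 5′ to 3′ on the strand of the gene. For Cxcl2 that start lies 28 bases inside the gene as GENCODE M21, the source of the gene positions given here, places it; for the other 5 both sources give the same start. Capitals mark matches, on either strand, to the NF-kB consensus, to GAAA repeated after 2 bases (interferon response), to CCAAT and CCACG with 9 bases between (ER stress) or to TGANTCA (AP-1).
Cxcl10 (chr5:92348890-92349139, minus strand): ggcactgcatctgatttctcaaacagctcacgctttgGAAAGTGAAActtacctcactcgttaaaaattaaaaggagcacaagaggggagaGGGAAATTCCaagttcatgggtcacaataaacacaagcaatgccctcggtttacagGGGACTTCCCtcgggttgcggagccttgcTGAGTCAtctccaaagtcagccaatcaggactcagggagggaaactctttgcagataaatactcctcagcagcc
Cxcl2 (chr5:90903649-90903898, plus strand): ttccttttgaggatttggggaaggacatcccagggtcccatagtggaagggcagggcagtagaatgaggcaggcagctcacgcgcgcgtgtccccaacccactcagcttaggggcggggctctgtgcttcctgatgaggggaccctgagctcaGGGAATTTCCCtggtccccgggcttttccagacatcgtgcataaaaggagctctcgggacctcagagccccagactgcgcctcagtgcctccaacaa
Ifi47 (chr11:49076337-49076586, plus strand): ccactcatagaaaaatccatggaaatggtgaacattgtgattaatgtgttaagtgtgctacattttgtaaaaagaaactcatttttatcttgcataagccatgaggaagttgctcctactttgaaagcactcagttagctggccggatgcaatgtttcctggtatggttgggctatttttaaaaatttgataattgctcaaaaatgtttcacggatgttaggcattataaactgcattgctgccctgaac
Serpina3f (chr12:104214294-104214543, plus strand): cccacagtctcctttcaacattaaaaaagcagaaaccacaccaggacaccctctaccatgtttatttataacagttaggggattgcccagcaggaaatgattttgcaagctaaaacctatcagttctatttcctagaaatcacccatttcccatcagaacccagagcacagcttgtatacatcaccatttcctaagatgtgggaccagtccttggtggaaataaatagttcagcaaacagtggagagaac
H2-Eb1 (chr17:34305617-34305866, plus strand): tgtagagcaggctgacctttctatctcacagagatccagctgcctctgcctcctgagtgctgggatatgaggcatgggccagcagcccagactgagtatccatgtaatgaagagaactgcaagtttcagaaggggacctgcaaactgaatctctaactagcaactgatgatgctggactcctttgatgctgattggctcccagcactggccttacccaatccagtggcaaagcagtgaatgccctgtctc
Ubd (chr17:37193642-37193891, plus strand): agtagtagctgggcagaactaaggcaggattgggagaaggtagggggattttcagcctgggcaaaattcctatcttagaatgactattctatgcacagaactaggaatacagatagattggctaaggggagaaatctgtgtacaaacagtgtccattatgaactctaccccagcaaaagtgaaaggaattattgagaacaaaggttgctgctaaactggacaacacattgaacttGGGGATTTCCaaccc

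The Cxcl10 window held NF-kB matches at 159 to 150 and 103 to 94 bases before the start, a match to the interferon pattern at 213 to 204 and a TGANTCA match at 74 to 68. The Cxcl2 window held 1 NF-kB match on each strand, at 97 to 88 and 96 to 87, which overlap. Ubd, higher in PiZ, held an NF-kB match at 15 to 6. No match to these letters was found in the windows of Ifi47, Serpina3f and H2-Eb1. Among all promoters on record, 3.95% held the NF-kB consensus, 2.95% the interferon pattern and 6.54% TGANTCA. Among genes with a promoter on record, the NF-kB consensus was in 63 of 792 (7.95%) called higher after TNFa, 103 of 2168 (4.75%) called higher in PiZ and 432 of 9449 (4.57%) tested. TGANTCA was in 7.83%, 5.17% and 4.41% of the same genes. These are matches of letters and were not tested as binding sites.

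Cxcl10 (chromosome 5, 92346638 to 92348889), a ligand for the receptor Cxcr3 on T cells, was at 4.73, 4.53, 3.04, 1.78 and 2.10 log2 CPM in PiZ 1 to 5 and at 5.84 to 9.60 (median 9.40) after TNFa. The groups did not overlap, although WT TNFa 4, at 5.84, was far below the other 5 TNFa libraries at 9.25 to 9.60. The difference was 5.60 ± 0.72 log2 units (adjusted p = 3.34e-05), a 48.5-fold higher mean on the log scale. Cxcl2 (chromosome 5, 90903871 to 90905938), a neutrophil attractant, was at 0.94, 0.77, 0.43, 0.64 and 0.78 in PiZ and 1.16 to 5.44 (median 5.02) after TNFa, again without overlap. Its difference was 3.57 ± 0.62 log2 units (adjusted p = 0.000355). Ccl2 (chromosome 11, 82035571 to 82037453), the ligand of Ccr2 on monocytes, was at 2.93, 3.47, 1.72, 1.32 and 2.69 in PiZ and 2.61 to 6.51 (median 6.23) after TNFa. WT TNFa 4, at 2.61, fell within the PiZ range of Ccl2. The difference was 3.20 ± 0.64 log2 units (adjusted p = 0.000999), and 3.80 without that library. Cxcl1, another neutrophil attractant, was higher after TNFa by 1.09 ± 0.53 log2 units (adjusted p = 0.0924), which was not called.

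Cxcl14 (chromosome 13, 56288643 to 56296551), a chemokine of epithelia, was at 3.33, 3.80, 3.20, 2.63 and 3.72 log2 CPM in PiZ 1 to 5 and at -2.65 to -0.50 (median -1.20) after TNFa. The groups were separate, with a difference of 4.65 ± 0.35 log2 units (adjusted p = 4.2e-07) toward PiZ. Ccl6, made by macrophages and other myeloid cells, was at 4.21 to 4.85 in PiZ and 2.46 to 3.00 after TNFa, also without overlap. Cxcl12, the ligand of Cxcr4, was higher in PiZ by 0.75 ± 0.18 log2 units as deposited and was not called on both scales.

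Ccr2 (chromosome 9, 124101950 to 124113557), the receptor of Ccl2 on recruited monocytes, was at 2.58, 3.04, 2.95, 2.79 and 2.50 log2 CPM in PiZ 1 to 5 and at -0.86 to 0.21 (median -0.58) after TNFa. Cx3cr1, the receptor of fractalkine on monocytes and macrophages, was at 1.59, 2.62, 3.41, 2.85 and 3.16 in PiZ and -2.17 to -0.74 (median -1.40) after TNFa. Cxcr4 was at 2.32, 2.26, 2.22, 1.96 and 2.15 and -1.59 to 0.02 (median -0.80). None of the 3 receptors overlapped between the groups, and WT TNFa 4 did not stand apart from the other TNFa libraries for them. The differences toward PiZ were 3.20 ± 0.21 log2 units (adjusted p = 1.62e-07) for Ccr2, 4.17 ± 0.34 log2 units (adjusted p = 7.78e-07) for Cx3cr1 and 2.89 ± 0.28 log2 units (adjusted p = 2.83e-06) for Cxcr4. Ccr1, a receptor shared by several CC chemokines, was higher in PiZ by 2.22 ± 0.57 log2 units. On the TNFa side, Cxcr2, the neutrophil receptor of Cxcl2, was at -1.10, 0.19, -2.90, -0.37 and -1.79 in PiZ and -1.28 to 1.56 (median 1.01) after TNFa. Its groups overlapped, and the difference was 1.89 ± 0.59 log2 units (adjusted p = 0.0156). Ccrl2 was higher after TNFa by 2.42 ± 0.53 log2 units, and Ackr1, which binds chemokines without classical signalling, by 2.13 ± 0.52.

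**Figure D2:**
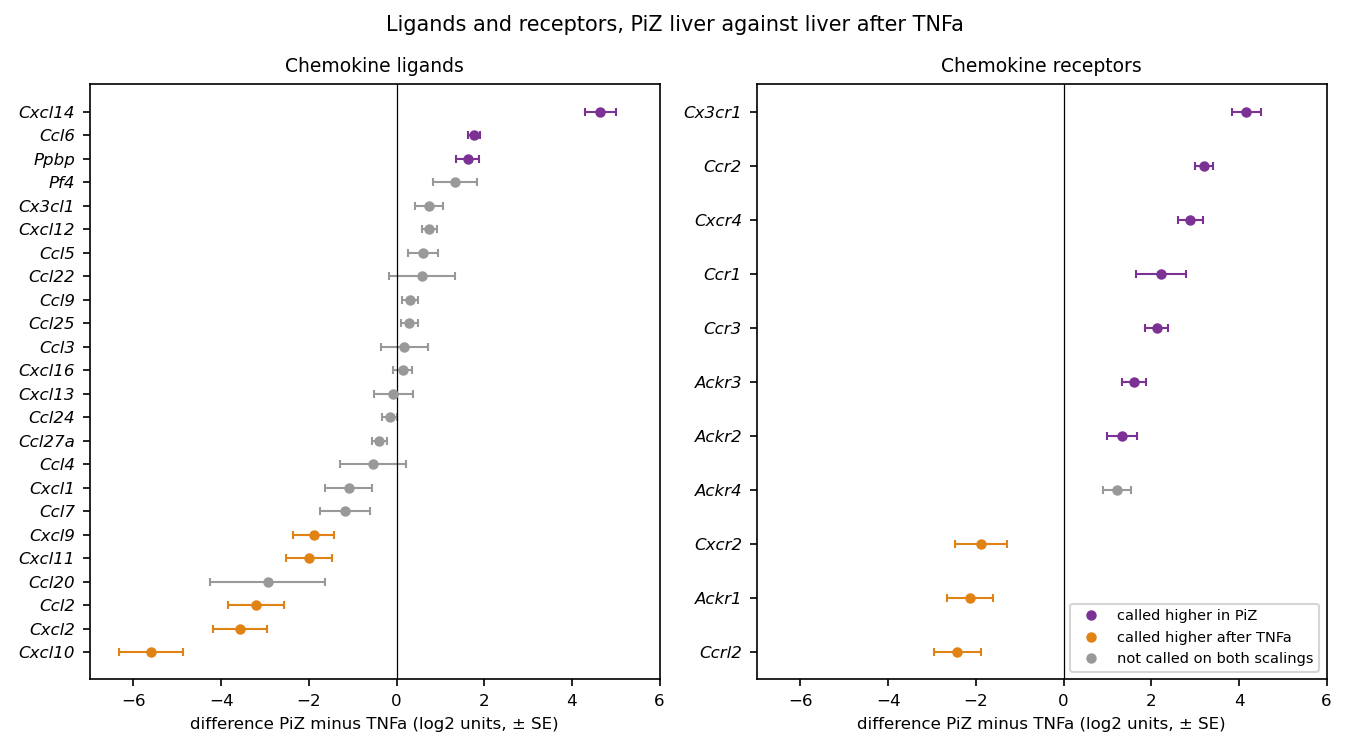
Difference between PiZ liver and liver after TNFa (log2 units, points, with standard errors as bars) for 24 chemokine ligands and 11 of the 12 receptors tested. Ligands reach from 5.60 toward TNFa (Cxcl10) to 4.65 toward PiZ (Cxcl14), and 7 of the 11 receptors plotted are called toward PiZ.

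Markers of the cells that carry these receptors moved in the same directions, and their part in the chemokine results was not tested. The recruited macrophage list itself held Ccr2 and Cx3cr1, and the neutrophil list held Cxcr2. Those receptors are counted again below, so part of the match was set by the lists. Of 27 markers of recruited macrophages, 21 were higher in PiZ and 1, Apoe, after TNFa, with a median difference of 2.21 log2 units (1.80 after the shift). Apoe is also made in quantity by hepatocytes, and its call ended without WT TNFa 4 and without PiZ 4. Summed over the other 26 markers the level was 2100 to 3300 CPM in PiZ and 1230 to 1680 CPM after TNFa, ranges that did not overlap. Ctsb was the most abundant of the 26, and the part of cells other than macrophages in this sum was not tested. Gpnmb, a glycoprotein of lipid-laden macrophages, was at 6.46, 6.90, 6.90, 6.98 and 7.0 log2 CPM in PiZ 1 to 5 and at 0.40 to 4.11 (median 1.64) after TNFa. Mmp12, the macrophage elastase, was at 6.70, 6.85, 6.81, 6.37 and 5.92 and -0.61 to 2.24 (median 0.27). Both were separate between the groups, although WT TNFa 1 and 2 were higher than the other TNFa libraries for each. The differences toward PiZ were 4.75 ± 0.61 log2 units (adjusted p = 3.35e-05) and 5.89 ± 0.53 log2 units (adjusted p = 1.93e-06). Trem2 and Itgax, further markers of such macrophages, were higher in PiZ by 3.90 ± 0.39 and 3.44 ± 0.26 log2 units.

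Markers of resident Kupffer cells were higher in PiZ for 6 of 13 and after TNFa for 1. Clec4f, which is restricted to Kupffer cells, was higher in PiZ by 0.82 ± 0.15 log2 units, and Timd4 differed by 0.15 ± 0.22 and was not called. Cd163, a haemoglobin scavenger receptor of macrophages, was the 1 higher after TNFa, at 1.35, 0.99, 0.34, 0.48 and 0.22 log2 CPM in PiZ 1 to 5 and 2.20 to 3.07 (median 2.69) after TNFa. Its groups did not overlap, and it differed by 2.03 ± 0.23 log2 units (adjusted p = 1.14e-05). In the vehicle libraries WT PBS 1 and 3 to 6, Cd163 was at 2.59 to 3.05 (4.20 in WT PBS 2). That was near its TNFa level and above every PiZ library. Summed over the 13 markers the level was 534 to 899 CPM in PiZ and 456 to 559 CPM after TNFa, ranges that overlapped.

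Neutrophil markers went toward TNFa. Of 13 tested, 8 were higher after TNFa and 1, Lcn2, in PiZ, and without WT TNFa 4 there were 10 and 1. The 8 include the chemokine receptor Cxcr2. S100a8, a calcium-binding protein of neutrophil granulocytes, was at 3.09, 2.24, 0.50, 2.56 and 1.82 log2 CPM in PiZ 1 to 5 and at 1.01 to 4.99 (median 4.36) after TNFa. Ngp, a granule protein, was at -1.32, -2.27, -3.42, -3.89 and -2.25 in PiZ and -2.15 to 3.52 (median 2.48) after TNFa. In both, WT TNFa 4 lay within the PiZ range and the other 5 TNFa libraries above it. Ngp differed by 4.40 ± 0.85 log2 units (adjusted p = 0.000748) and S100a8 by 1.83 ± 0.64 log2 units (adjusted p = 0.0259). Ly6g, a defining surface marker, had no reads in 4 of 5 PiZ libraries and in 1 of 6 TNFa libraries and was not tested. Without Lcn2, which hepatocytes also make, the summed level of the list was 20.5 to 55.2 CPM in PiZ and 16.5 to 161 CPM after TNFa, with WT TNFa 4 at 16.5.

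Lymphocyte and dendritic cell markers were mostly below the filter: 2 of 28 T and NK cell markers, 5 of 17 B and plasma cell markers and 2 of 11 dendritic cell markers were tested. Cd3e, a defining T cell gene, lay between -1.67 and -0.54 log2 CPM in PiZ and between -3.21 and -1.43 after TNFa, and Gzma between -1.29 and 0.24 and between -3.21 and -1.18. The T and NK marker that was called, Slamf7, also lies on activated macrophages. It was at 4.79, 5.24, 5.36, 4.79 and 4.76 in PiZ 1 to 5 and -3.96 to -0.81 (median -2.06) after TNFa, a separate pair of groups that differed by 7.15 ± 0.50 log2 units (adjusted p = 2.15e-07). Without Slamf7 the other 27 T and NK markers summed to 9.39 to 13.0 CPM in PiZ and 4.32 to 7.62 CPM after TNFa. Of the B and plasma cell markers, 4 of 5 tested were higher in PiZ, among them Igkc (immunoglobulin kappa constant region) by 1.53 ± 0.31 log2 units (adjusted p = 0.00101) and Cd22 by 2.92 ± 0.33 log2 units (adjusted p = 1.11e-05). Ly6d, which stood in the lists of dendritic cell markers and of ductular and progenitor genes, was higher in PiZ by 7.23 ± 0.29 log2 units. Without it the other 10 dendritic cell markers summed to 7.3 to 12.4 CPM in PiZ and 4.33 to 6.35 CPM after TNFa. The defining gene Zbtb46 differed by 0.14 ± 0.20 and was not called.

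**Figure D3:**
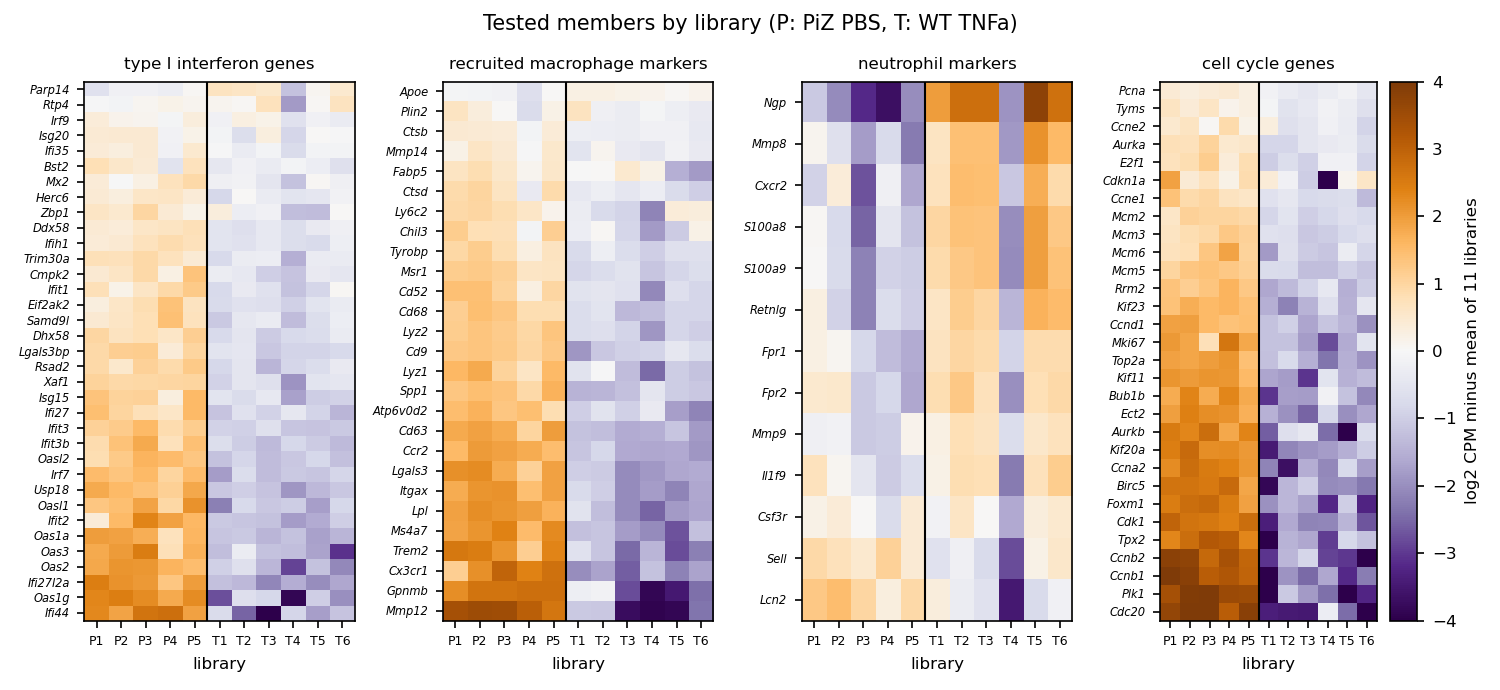
Each row is a tested gene and each column a library (P1 to P5, PiZ PBS; T1 to T6, WT TNFa), coloured by log2 CPM minus the mean of the 11 libraries. Type I interferon, recruited macrophage and cell cycle genes are mostly higher in P1 to P5, and most neutrophil markers are higher in T1, T2, T3, T5 and T6, with T4 low.

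Interleukins and colony-stimulating factors were mostly below the filter, with 14 of 29 tested, 4 called higher in PiZ and 2 after TNFa. Tgfb2 and Tgfb3, which drive matrix production, were the widest toward PiZ. Tgfb2 was at 1.69, 1.89, 2.30, 1.61 and 1.87 log2 CPM in PiZ 1 to 5 and -2.04 to 0.11 (median -0.79) after TNFa, and Tgfb3 at 1.07 to 1.37 and -1.90 to 0.15. Neither overlapped between the groups, and they differed by 2.69 ± 0.36 log2 units (adjusted p = 4.23e-05) and 2.46 ± 0.34 log2 units (adjusted p = 6.21e-05). Tgfb1 differed by 0.02 ± 0.26 and was not called. Il33, an alarmin, was higher in PiZ by 1.65 ± 0.22 log2 units (adjusted p = 3.76e-05). Csf1, the growth factor of macrophages, was higher after TNFa, at 4.19, 4.57, 3.67, 3.30 and 3.86 in PiZ and 3.16 to 6.32 (median 5.88) after TNFa. WT TNFa 4 was below every PiZ library for Csf1, and the other 5 were above them. Csf1 differed by 1.53 ± 0.48 log2 units (adjusted p = 0.0145), and its receptor Csf1r was higher in PiZ by 1.06 ± 0.17 log2 units (adjusted p = 0.000182). Il15 was higher after TNFa by 1.38 ± 0.37 log2 units (adjusted p = 0.00607). Il6 lay below the filter, between -6.52 (no reads) and -1.77 in PiZ and between -4.07 and -0.37 after TNFa.

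Of 31 cytokine receptors, STAT factors and suppressors of cytokine signalling (SOCS), 8 were higher after TNFa and 6 in PiZ. Without WT TNFa 4 there were 10 and 6. The share for PiZ was near the 22.2% of all genes. The SOCS genes, which block signals from cytokine receptors, were higher after TNFa. Socs1 was at 2.62, 0.53, 0.36, 0.29 and -0.05 log2 CPM in PiZ 1 to 5 and 1.29 to 5.47 (median 3.89) after TNFa. PiZ 1 was the highest PiZ library and lay above WT TNFa 4. Socs1 differed by 2.86 ± 0.66 log2 units (adjusted p = 0.00255), Socs2 by 2.23 ± 0.42 log2 units (adjusted p = 0.000613), Cish by 2.15 ± 0.44 log2 units (adjusted p = 0.00108) and Socs3 by 1.29 ± 0.51 log2 units (adjusted p = 0.0471). Receptors were called in both directions. After TNFa, Il15ra, which presents interleukin 15, and Lifr, the receptor of leukaemia inhibitory factor, were higher without overlap, by 1.68 ± 0.22 (adjusted p = 4.5e-05) and 0.95 ± 0.15 log2 units (adjusted p = 0.000206). Il17ra and Il1rap were higher by 1.20 ± 0.33 and 0.38 ± 0.13, with overlap. In PiZ, 6 receptors were higher. Il7r, the receptor of interleukin 7, was at 1.70, 1.52, 1.76, 1.70 and 1.42 in PiZ and -2.67 to -1.24 (median -2.03) after TNFa, and Csf2ra, the receptor of GM-CSF, at 3.12 to 3.54 and 0.91 to 1.86. Both were separate, and they differed by 3.67 ± 0.28 log2 units (adjusted p = 5.09e-07) and 2.03 ± 0.18 log2 units (adjusted p = 1.76e-06). Tgfbr2, the binding receptor of TGF-beta, was higher in PiZ by 1.87 ± 0.14 log2 units (adjusted p = 3.96e-07). Stat3 differed by 0.32 ± 0.14 log2 units and was not called.

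Toll-like receptors and inflammasome genes divided, with 9 of 28 higher in PiZ and 7 after TNFa. Tlr2, the receptor of bacterial lipoproteins, was at 6.25, 5.29, 3.92, 3.88 and 4.36 log2 CPM in PiZ 1 to 5 and 4.77 to 8.56 (median 8.23) after TNFa. Its groups overlapped through WT TNFa 4 at 4.77, and it differed by 2.95 ± 0.65 log2 units (adjusted p = 0.00189) toward TNFa. Nlrp3, the inflammasome sensor, and Myd88, the adaptor of most Toll-like receptors, were also higher after TNFa, by 1.86 ± 0.53 log2 units (adjusted p = 0.00962) and 1.45 ± 0.36 log2 units (adjusted p = 0.00377). Of the receptors that sense nucleic acids in endosomes, Tlr7, Tlr8, Tlr9 and Tlr13 were higher in PiZ. Tlr3, which binds double-stranded RNA, differed by 0.59 ± 0.29 log2 units in the other direction (adjusted p = 0.104); it passed toward TNFa on the shifted scale (adjusted p = 0.0169), and its adjusted p without WT TNFa 4 was 0.000145 as deposited. Tlr8 was at 2.08, 2.11, 2.68, 2.35 and 2.02 in PiZ and -2.16 to 0.54 (median -0.97) after TNFa, and Tlr9 at 1.34, 1.24, 1.63, 0.59 and 0.95 and -2.47 to -0.51 (median -1.66). Neither overlapped, and the differences were 3.03 ± 0.43 log2 units (adjusted p = 7.81e-05) and 2.74 ± 0.33 log2 units (adjusted p = 2.17e-05). Tlr7 and Tlr13 differed by 1.41 ± 0.28 and 2.15 ± 0.24 log2 units toward PiZ, as did Tlr4, the receptor of lipopolysaccharide, by 0.97 ± 0.15. Clec7a, the beta-glucan receptor of myeloid cells, was at 4.79, 5.05, 5.07, 5.05 and 4.67 in PiZ and 0.54 to 1.98 (median 1.47) after TNFa, and differed by 3.53 ± 0.23 log2 units (adjusted p = 1.44e-07). Pycard and Casp1, the adaptor and protease of the inflammasome, were higher in PiZ by 2.08 ± 0.29 log2 units (adjusted p = 6.97e-05) and 1.76 ± 0.29 log2 units (adjusted p = 0.000224).

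**Figure D4:**
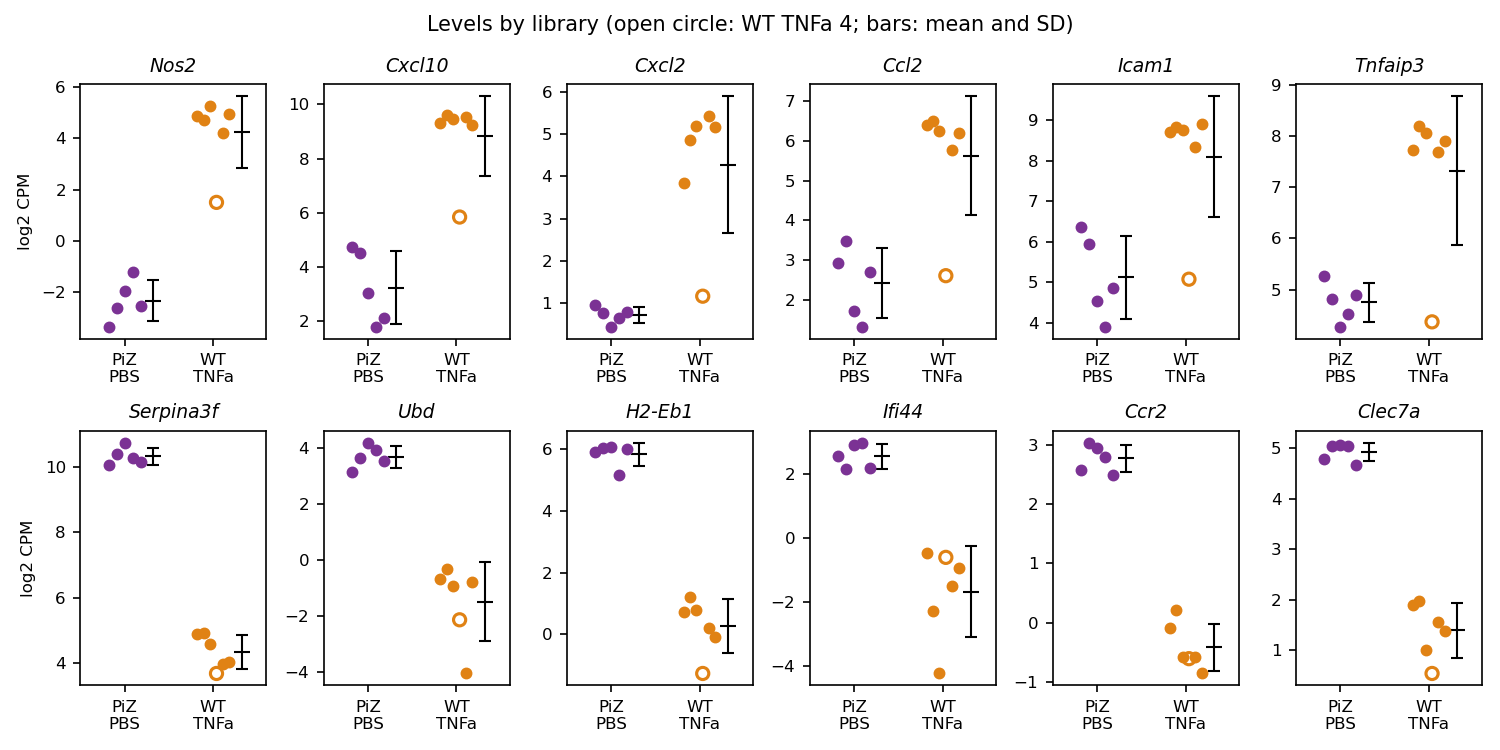
Log2 CPM in each library for 6 genes higher after TNFa (upper row) and 6 higher in PiZ (lower row), with mean and SD beside the points; each panel has its own axis. The open circle, WT TNFa 4, is below the other 5 TNFa libraries in all 6 upper panels and lies within the PiZ range for Ccl2, Icam1 and Tnfaip3.

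Endothelial adhesion molecules and mediators gave 5 of 17 genes higher after TNFa and 6 in PiZ. Nos2 (chromosome 11, 78920787 to 78960254) was at -3.36, -2.61, -1.96, -1.20 and -2.56 log2 CPM in PiZ 1 to 5 and 1.5 to 5.27 (median 4.80) after TNFa. The groups were separate with WT TNFa 4 included, at 1.5, and the difference was 6.59 ± 0.60 log2 units (adjusted p = 2.1e-06). Sele, which encodes E-selectin of activated endothelium, was at 1.46, 1.81, -0.58, -0.27 and -0.42 in PiZ and 0.65 to 4.54 (median 4.05) after TNFa. Icam1, the ligand of leukocyte integrins, was at 6.37, 5.95, 4.53, 3.89 and 4.86 in PiZ and 5.07 to 8.89 (median 8.73) after TNFa. For both, WT TNFa 4 lay within the PiZ range and the other 5 above it. The differences were 3.15 ± 0.67 log2 units (adjusted p = 0.00153) and 2.98 ± 0.66 log2 units (adjusted p = 0.00202), and Selp (P-selectin) and Vcam1 were higher after TNFa by 2.05 ± 0.52 log2 units (adjusted p = 0.00461) and 1.99 ± 0.61 log2 units (adjusted p = 0.0138). Genes higher in PiZ were markers of endothelium such as Cd34, by 1.98 ± 0.18 log2 units (adjusted p = 1.97e-06), and Pecam1, by 0.74 ± 0.10 log2 units (adjusted p = 5.98e-05), with Ptges, a prostaglandin E synthase, by 1.81 ± 0.49 log2 units (adjusted p = 0.0068). Of the genes of sinusoidal endothelium, Fcgr2b and Clec4g were higher in PiZ without overlap, by 1.22 ± 0.14 log2 units (adjusted p = 1.16e-05) and 0.83 ± 0.12 log2 units (adjusted p = 9.23e-05), whereas Lyve1 and Stab2 differed by 0.00 ± 0.30 and 0.48 ± 0.13 and were not called.

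Immediate early factors were higher after TNFa for 8 of 25 and in PiZ for 4. Leaving out WT TNFa 4 gave 11 and 4, and without PiZ 4 there were 4 and 3. Irf1, an interferon regulatory factor that NF-kB induces, was at 4.65, 4.98, 4.43, 4.48 and 4.51 log2 CPM in PiZ 1 to 5 and 4.64 to 7.58 (median 7.33) after TNFa. WT TNFa 4 at 4.64 was within the PiZ range, the other 5 lay at 7.21 to 7.58, and the difference was 2.31 ± 0.44 log2 units (adjusted p = 0.000622). Junb and Cebpb were higher after TNFa by 1.15 ± 0.27 and 1.14 ± 0.41 log2 units, whereas Fos and Atf3 were higher in PiZ by 1.22 ± 0.22 log2 units (adjusted p = 0.000509) and 1.57 ± 0.47 log2 units (adjusted p = 0.0122). Atf3 lost its call without PiZ 4. Klf4 and Egr2 were also higher in PiZ, by 2.41 ± 0.41 log2 units (adjusted p = 0.000302) and 1.95 ± 0.49 log2 units (adjusted p = 0.00422). Jun and Myc differed by 0.70 ± 0.27 and 0.05 ± 0.34 and were not called.

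Acute-phase proteins, secreted by hepatocytes under inflammatory cytokines, were higher after TNFa for 12 of 34 and in PiZ for 4, and for 16 and 4 without WT TNFa 4. Serpina3f (chromosome 12, 104214544 to 104221129), an antichymotrypsin-like protease inhibitor, was at 10.07, 10.40, 10.76, 10.28 and 10.16 log2 CPM in PiZ 1 to 5 and 3.67 to 4.90 (median 4.30) after TNFa. The groups were wide apart, with a difference of 6.00 ± 0.23 log2 units (adjusted p = 2.02e-09), a 63.8-fold higher mean on the log scale. Its relatives Serpina3n and Serpina3g were higher after TNFa by 0.55 ± 0.10 and 0.69 ± 0.47 log2 units, with Serpina3n called and Serpina3g not. These genes are close copies, so reads could be divided uncertainly among them. Lcn2, an iron-sequestering protein, was at 8.97, 9.17, 8.68, 7.99 and 8.61 in PiZ and 4.21 to 8.01 (median 7.25) after TNFa. WT TNFa 4, at 4.21, was the lowest, and Lcn2 differed by 1.82 ± 0.53 log2 units (adjusted p = 0.0106) with it and 1.29 without it. Hpx, which binds haem, was higher in PiZ by 1.18 ± 0.18 log2 units (adjusted p = 0.000143).

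On the TNFa side of the acute-phase list, Crp, the C-reactive protein gene, was at 8.48, 8.10, 8.07, 8.14 and 7.92 log2 CPM in PiZ 1 to 5 and 8.98 to 11.28 (median 10.83) after TNFa. The groups did not overlap, and the difference was 2.46 ± 0.32 log2 units (adjusted p = 3.82e-05). Steap4, a metalloreductase, and Saa3, a serum amyloid A protein, were higher after TNFa by 2.15 ± 0.40 log2 units (adjusted p = 0.000543) and 2.00 ± 0.55 log2 units (adjusted p = 0.00775). The classical serum amyloid genes Saa1 and Saa2, themselves close copies, differed by 0.34 ± 0.46 and 0.80 ± 0.50 toward TNFa and were not called. Fga, Fgb and Fgg, the fibrinogen chains, were higher after TNFa by 0.68 ± 0.14, 0.43 ± 0.13 and 0.51 ± 0.13 log2 units. Hp (haptoglobin), Orm1 and Hamp differed by 0.45 ± 0.21, 0.08 ± 0.10 and 0.18 ± 0.26 and were not called.

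Complement genes were higher in PiZ for 8 of 30, a share near the 22.2% of all genes, and after TNFa for 5. Their median difference after the shift was 0.01 log2 units, beside -0.02 over all genes. Those higher in PiZ included receptors of macrophages, with Itgax and C3ar1 differing by 3.44 ± 0.26 log2 units (adjusted p = 4.95e-07) and 3.27 ± 0.22 log2 units (adjusted p = 1.44e-07), and the C1q chains C1qa, C1qb and C1qc, by 0.89 ± 0.15, 1.07 ± 0.13 and 1.06 ± 0.18 log2 units. Hc, which encodes complement C5 and is made by hepatocytes, was at 8.69, 8.54, 8.74, 9.0 and 9.03 log2 CPM in PiZ 1 to 5 and 5.43 to 5.99 (median 5.81) after TNFa. Its groups were separate and tight, with a difference of 3.02 ± 0.13 log2 units (adjusted p = 4.66e-09). The wild-type vehicle libraries also lay below every PiZ library for Hc. C3 differed by 0.21 ± 0.13 and was not called. After TNFa, Cfd (factor D) was higher by 2.98 ± 0.85 log2 units (adjusted p = 0.0095), with PiZ 1 at 0.55 and the other 4 PiZ libraries at -4.30 to -2.82. C8g was higher after TNFa by 0.71 ± 0.14 log2 units (adjusted p = 0.000815).

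Type I interferon genes, which cells switch on to resist viruses, were called in 1 direction. Of 35 tested, 26 were higher in PiZ and 0 after TNFa, beside 22.2% and 8.53% of all genes, and the median difference was 1.70 log2 units as deposited and 1.29 after the shift, beside 0.39 and -0.02. The counts were 26 and 1 without WT TNFa 4, and 27 and 0 without PiZ 4. Toward TNFa, limma gave 0 members at an unadjusted p under 0.05 as deposited, and 1, Parp14, on the shifted scale alone. With voom on recovered reads the count was also 1. Ifi44 was at 2.54, 2.14, 2.89, 2.97 and 2.18 log2 CPM in PiZ 1 to 5 and -4.23 to -0.48 (median -1.22) after TNFa. Ifi27l2a was at 4.64, 4.33, 4.23, 3.49 and 4.16 and 0.07 to 0.94 (median 0.59). Both were separate between the groups, with differences of 4.22 ± 0.57 log2 units (adjusted p = 5.13e-05) and 3.64 ± 0.22 log2 units (adjusted p = 7.32e-08). The oligoadenylate synthetases Oas1g, Oas2, Oas3 and Oas1a, which activate RNase L on sensing double-stranded RNA, differed by 4.05, 3.35, 3.22 and 2.91 log2 units. Oas1g and Oas1a are copies of one family, so reads could be divided uncertainly between them. Ifi44 and Oas1g were below 0 in every TNFa library and were tested only because PiZ was high. Irf7, the regulator of interferon-alpha genes, was higher in PiZ by 2.52 ± 0.18 log2 units (adjusted p = 2.49e-07), and Isg15, a ubiquitin-like modifier, by 1.95 ± 0.26 log2 units (adjusted p = 4.14e-05). Ifnb1, the gene of interferon beta, had no reads in any of the 11 libraries.

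Genes of the interferon-gamma type gave a mixed result. Of 20 guanylate-binding proteins and immunity-related GTPases with Ubd, 5 were higher in PiZ and 4 after TNFa. Without WT TNFa 4 there were 5 and 10. The share for PiZ was near the 22.2% of all genes. Ubd (chromosome 17, 37193892 to 37196095), a ubiquitin-like protein also called FAT10, was at 3.13, 3.62, 4.19, 3.91 and 3.53 log2 CPM in PiZ 1 to 5 and -4.07 to -0.34 (median -0.87) after TNFa. The groups were separate, and Ubd differed by 5.17 ± 0.56 log2 units (adjusted p = 8.42e-06). Ifi47 (chromosome 11, 49076587 to 49096974), an immunity-related GTPase, was at 4.33, 4.30, 3.86, 3.18 and 3.82 in PiZ and 4.78 to 8.43 (median 7.52) after TNFa. It was separate too, in the opposite direction, with a difference of 3.34 ± 0.51 log2 units (adjusted p = 0.000123). Gbp5 and Tgtp1 were higher after TNFa by 2.13 ± 0.55 log2 units (adjusted p = 0.00522) and 2.86 ± 0.61 log2 units (adjusted p = 0.00152), and Gbp2b and Igtp were higher in PiZ by 2.75 ± 0.32 log2 units (adjusted p = 1.65e-05) and 1.56 ± 0.18 log2 units (adjusted p = 1.52e-05). Gbp and Tgtp genes have close copies, and these values carry that uncertainty. Outside the lists, Ifi205, an interferon-inducible sensor gene, was higher after TNFa by 4.49 ± 0.66 log2 units (adjusted p = 9.53e-05).

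Genes of antigen presentation were counted by MHC class, and the difference between the classes was not tested. In MHC class I, 5 of 19 genes were higher in PiZ, a share near the 22.2% of all genes, and 4 after TNFa. Tapbp, the peptide-loading factor tapasin, was higher in PiZ by 1.24 ± 0.14 log2 units (adjusted p = 1.06e-05), and H2-Q6 and H2-Q7, copies of one family, after TNFa by 1.73 ± 0.38 log2 units (adjusted p = 0.00178) and 0.84 ± 0.11 log2 units (adjusted p = 3.83e-05). H2-K1, H2-D1 and B2m differed by 0.36, 0.34 and 0.42 log2 units and were not called. In MHC class II, 7 of 10 genes were higher in PiZ and 0 after TNFa. Toward TNFa, limma gave 0 at an unadjusted p under 0.05 as deposited and 1, H2-DMb2, on the shifted scale alone, and voom gave 1. The median difference was 1.23 log2 units as deposited and 0.82 after the shift. H2-Eb1 (chromosome 17, 34305867 to 34316674), a class II beta chain, was at 5.90, 6.04, 6.09, 5.18 and 6.01 log2 CPM in PiZ 1 to 5 and -1.28 to 1.20 (median 0.47) after TNFa. It was separate between the groups and differed by 5.59 ± 0.37 log2 units (adjusted p = 1.44e-07). The wild-type vehicle libraries lay below every PiZ library for it too. The other chains differed less: H2-Ab1 by 1.37 ± 0.19 log2 units (adjusted p = 6.53e-05), H2-Aa by 0.95 ± 0.22 log2 units (adjusted p = 0.0026) and Cd74, the invariant chain, by 1.73 ± 0.20 log2 units (adjusted p = 1.61e-05). The call of H2-Aa ended without WT TNFa 4. Ctss, the protease that trims the invariant chain, was at 7.44, 7.54, 7.87, 7.52 and 7.54 in PiZ and 4.59 to 5.18 (median 4.79) after TNFa, and differed by 2.73 ± 0.12 log2 units (adjusted p = 5.67e-09).

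Outside inflammation, the lists of tissue repair and stress went toward PiZ. Of 34 collagen and stellate cell genes, 31 were higher in PiZ and 1 after TNFa, with a median difference of 2.36 log2 units. Col1a1, the main fibrillar collagen chain, was at 6.94, 7.61, 7.24, 6.35 and 7.32 log2 CPM in PiZ 1 to 5 and 2.34 to 3.75 (median 3.07) after TNFa, and differed by 4.05 ± 0.25 log2 units (adjusted p = 9.48e-08). Of 30 cell cycle genes, 27 were higher in PiZ, with a median difference of 3.38 log2 units. Toward TNFa there were 0 by limma on either scale, 0 at an unadjusted p under 0.05 and 0 by voom. Cdc20, an activator of mitotic exit, was at 2.92, 3.52, 3.28, 2.33 and 3.08 in PiZ and -6.52 to -1.02 (median -4.16) after TNFa. The groups of Col1a1 and Cdc20 were separate. Of 13 ductular and progenitor genes, 9 were higher in PiZ, among them Prom1 by 3.42 ± 0.27 log2 units (adjusted p = 6.54e-07) and Spp1 (osteopontin) by 2.46 ± 0.18 log2 units (adjusted p = 2.76e-07). Krt7, Krt19 and Sox9, which define bile duct cells, differed by 0.53, 0.05 and 0.10 log2 units and were not called.

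Genes of ER folding were higher in PiZ for 12 of 31 and after TNFa for 1. Derl3, of the ER degradation machinery, was at 5.52, 5.74, 5.77, 3.67 and 5.25 log2 CPM in PiZ 1 to 5 and 0.11 to 4.17 (median 1.36) after TNFa, with WT TNFa 1 above PiZ 4. It differed by 3.48 ± 0.69 log2 units (adjusted p = 0.000872). Hspa5, the chaperone BiP, was higher in PiZ by 0.78 ± 0.21 log2 units and was not called on both scales. Xbp1, a transcription factor of the unfolded protein response, was the 1 gene higher after TNFa, by 0.94 ± 0.20 log2 units (adjusted p = 0.00132). Of 24 targets of ATF4, 15 were higher in PiZ and 1 after TNFa. Asns, asparagine synthetase, was at 4.70, 5.21, 5.08, 4.41 and 5.05 in PiZ and -0.80 to 1.06 (median -0.25) after TNFa, and differed by 4.91 ± 0.33 log2 units (adjusted p = 1.83e-07). Ddit3, which encodes CHOP, was higher in PiZ by 1.79 ± 0.25 log2 units (adjusted p = 7.03e-05), and Atf4 itself differed by 0.01 ± 0.17.

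Of 45 hepatocyte genes, 22 were higher after TNFa than in PiZ and 1, Cyp7a1, was higher in PiZ. Cyp7a1, the rate-limiting enzyme of bile acid synthesis, was at 4.14, 5.81, 5.13, 5.10 and 3.91 log2 CPM in PiZ 1 to 5 and 1.95 to 4.72 (median 2.56) after TNFa, with WT TNFa 4 the highest of the 6, inside the PiZ range. It differed by 1.98 ± 0.46 log2 units (adjusted p = 0.00272). Cyp8b1, which makes cholic acid, was at 6.29, 6.22, 6.43, 6.08 and 6.68 in PiZ and 7.92 to 8.45 (median 8.33) after TNFa, separate in the opposite direction by 1.94 ± 0.13 log2 units (adjusted p = 1.35e-07). Glul, the glutamine synthetase of hepatocytes around the central vein, was higher after TNFa by 1.36 ± 0.11 log2 units (adjusted p = 1.08e-06). In the vehicle libraries WT PBS 1 and 3 to 6, Cyp8b1 was at 7.94 to 9.09 (6.45 in WT PBS 2). Glul was at 9.54 to 9.98 there (7.31), and at 9.38 to 9.86 after TNFa. For both genes the TNFa level was thus near those vehicle libraries, and PiZ stood lower. Cyp7a1 was at 3.12 to 8.08 there (3.78), a range that held all PiZ libraries. Alb differed by 0.09 ± 0.18 and was not called.

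Of the genes with the widest differences, several were not inflammatory. Toward PiZ the 8 widest were Vmn2r3, Samd3, Pirt, Wfdc16, Sprr1a, Lrtm2, Ggt1 and Npc1l1. Ggt1, the gamma-glutamyltransferase of serum tests, was at 3.61, 4.68, 4.66, 3.21 and 4.82 log2 CPM in PiZ 1 to 5 and -6.52 to -0.10 (median -3.54) after TNFa. Pirt had no reads in any of the 6 TNFa libraries, so its fitted difference depends on the prior count of the authors' values and is not given. Toward TNFa the 8 widest were Gdpd3, Nos2, Sbk2, Cxcl10, Trim12a, Ripk2, Ifi205 and Rims4. Gdpd3, a lysophospholipase D, was at -4.20, -2.82, -4.26, -2.47 and -2.56 in PiZ and 3.22 to 3.65 (median 3.57) after TNFa, and Sbk2 at -3.01 to -1.79 and 3.19 to 3.75. Both were separate between the groups, and Gdpd3 varied more within PiZ (SD 0.89) than after TNFa (SD 0.20).

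Vehicle-treated WT libraries did not enter the comparison, but their levels show on which side a gene stood apart. Given here are WT PBS 1 and 3 to 6. The library labelled WT PBS 2, which held 10.2 M reads with 72.2% on protein-coding genes, is given separately. Gdpd3 was at 3.33 to 4.14 log2 CPM in the 5 vehicle libraries (2.78 in WT PBS 2), Sbk2 at 3.27 to 3.89 (4.79) and Rims4 at 0.92 to 3.02 (5.63). Trim12a was at 0.92 to 1.89 (1.18), and at 2.07 to 2.80 after TNFa. For these 4 genes every wild-type library, vehicle or TNFa, lay above every PiZ library. Hc was at 5.78 to 6.06 (7.19) and H2-Eb1 at -2.14 to -0.41 (5.08), below every PiZ library, as all TNFa libraries were too. The same held for Serpina3f, Ubd, Slamf7, Ly6d, Mmp12, Mlkl and Clec7a, where every vehicle library, WT PBS 2 included, lay below every PiZ library. For Serpina3f the highest vehicle level was 3.62, the highest TNFa level 4.90 and the lowest PiZ level 10.07. The strain of either group was not among the labels. A difference of strain and the transgene therefore cannot be told apart for any of these genes. The part of strain in other genes was not tested. By contrast Nos2 was at -6.52 to -2.30 (4.46), Cxcl2 at -6.52 to -2.69 (1.82) and Tnfaip3 at 0.77 to 2.34 (4.07). For Cxcl2 all 5 PiZ libraries were above these 5 vehicle libraries and below all 6 TNFa libraries. For Tnfaip3 they were above the vehicle libraries and below every TNFa library except WT TNFa 4. Lcn2 was at 1.26 to 2.77 (3.35), below every library of both groups.

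WT TNFa 4 stood apart from the other 5 TNFa libraries. Of 89 inflammatory genes that were called higher after TNFa without it and that lay higher in each of the other 5 TNFa libraries than in every PiZ library, it was the lowest TNFa library for 83. It lay within the PiZ range for 43, below it for 29 and above it for 17. At 62 of the 89 it was above WT PBS 1 and 3 to 6. Its depth was 37.3 M reads, the lowest of the TNFa libraries, and its mitochondrial share was 8.7%, within their range. Over all genes, 836 met the same conditions, and it was the lowest TNFa library for 409 and above the PiZ range for 516.

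Leaving out WT TNFa 4 reversed 0 calls by limma among the 12794 genes. It added 192 genes higher after TNFa and 297 higher in PiZ, and ended 64 and 88. Among the inflammatory genes it added 33 toward TNFa and 3 toward PiZ, and ended 1 and 3. The calls that ended were those of C8b, toward TNFa, and of Psmb9, H2-Aa and Jam2, toward PiZ. Il7, Ccl20, Nr4a3 and Ccl4 were the added genes whose difference moved most. Because the library was already known to stand apart, calls added toward TNFa without it are not separate evidence of a difference. Ccl20, which attracts dendritic cells and lymphocytes, was at -6.52 to -1.48 log2 CPM in PiZ, at 0.23 to 0.86 in 5 TNFa libraries, and had no reads in WT TNFa 4. Its difference was 2.94 ± 1.32 log2 units (adjusted p = 0.0727) with that library and 4.11 (adjusted p = 0.000695) without it. Ccl4, a macrophage chemokine, was at 0.00 to 0.96 in PiZ, 1.41 to 2.14 in 5 TNFa libraries and -3.08 in WT TNFa 4. Over the 102 inflammatory genes called higher in PiZ, leaving the library out moved the difference by a median of 0.08 log2 units and by at most 0.54 (Ccr1). Over the 82 called higher after TNFa the median move was 0.36 and the most 0.64 (Tgtp1), and 74 of them were further from 0 without it. Serpina3f went from 6.00 to 5.86 log2 units and Ccr2 from 3.20 to 3.16, whereas Lcn2 went from 1.82 to 1.29, Egr2 from 1.95 to 1.5 and Atf3 from 1.57 to 1.13.

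**Figure D5:**
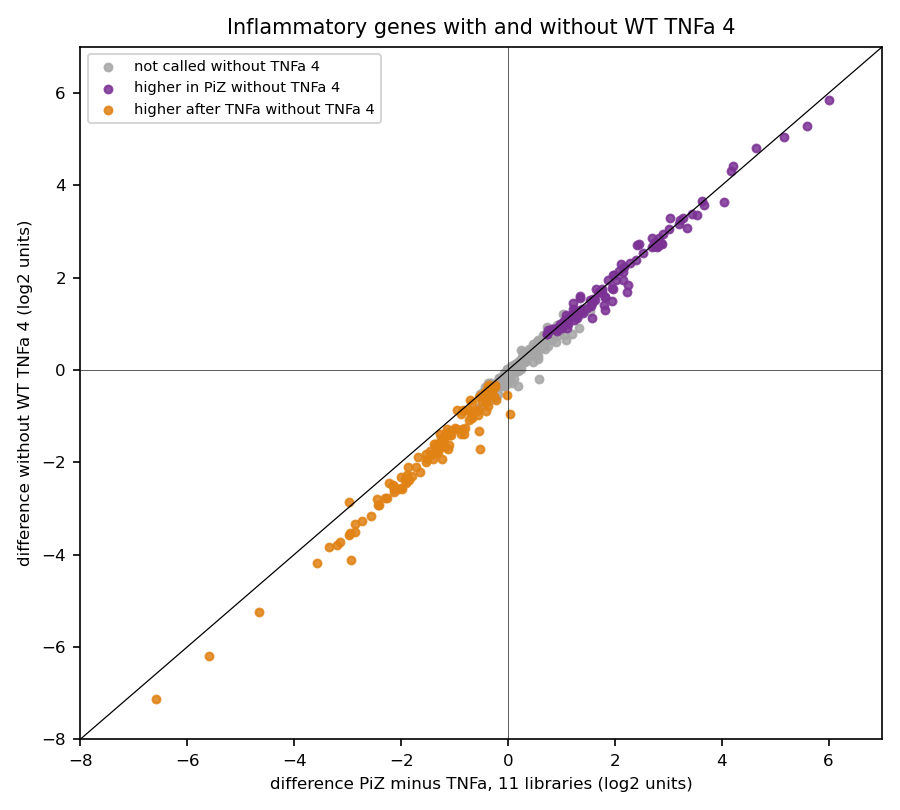
Difference PiZ minus TNFa (log2 units) of each tested inflammatory gene with all 11 libraries (horizontal) and without WT TNFa 4 (vertical), coloured by the call without it; the line marks equal values. Genes higher after TNFa lie mostly below the line, further from 0 without that library, as Nos2 does at -6.59 and -7.14, and genes higher in PiZ lie on both sides of it, with Lcn2 among the farthest at 1.82 and 1.29.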

How the data were processed

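Per the submitters' processing notes, the tools were STAR, featureCounts (Subread), edgeR, bcl2fastq and DRAGEN, with GRCm38 as the genome; strand settings are not given in the sources used here. The authors deposited log2 CPM values with a small prior count. After removal of 287 repeated rows, 55487 gene IDs remained, and 99.4% were in GENCODE M21. Whole reads were recovered within 0.1 read for 100% of values below 1000 reads, which gave the depths. Genes above 0 log2 CPM in at least 5 of the 11 libraries were tested (12794) with limma 3.58.1 in R 4.3.3 (lmFit, eBayes with a trend, two-sided, Benjamini-Hochberg over all genes), as deposited and after a shift of each library to one median. On simulated data 71.6% of 67 planted changes of 1 log2 unit and 100% of 2 were recovered, 0 in the wrong direction. Of 12594 unchanged genes, 11 were called. The simulation drew each gene independently, without a median offset between the groups or a library moving many genes together. It called genes on 1 scale, so these rates do not describe the calls on both scales above. Replicate numbers did not pair the libraries. The comparison, gene lists and motifs were chosen with earlier results of these data known. Named genes are the 8 widest per direction (both scales, no overlap, higher group's mean not below 2 log2 CPM, no predicted names), up to 3 called members per list and direction and up to 4 inflammatory genes whose call ended or began without WT TNFa 4; other members were named after their values were seen, and a few genes counted in the lists are not reported here by name. Alternatives covered scaling, filter, pseudocount, library weights, added groups and each library left out.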

Additional observations from a re-analysis of the deposited data

Results flagged for a closer look

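Among the named genes, 290 groups (a gene in PiZ or after TNFa) were tested for a highest or lowest library far from the rest of its group by Dixon's ratio, which chance alone would flag in about 1 of 20. The ratio flagged 62, of which 46 were WT TNFa 4 and 9 were PiZ 4. WT TNFa 4 was already known to stand apart, and some named genes were chosen because their call changed without it, so its number of flags is a description and not set against that chance rate. Values are log2 CPM.

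WT TNFa 4 was far below the other 5 TNFa libraries for Nos2 (1.5), Cxcl10 (5.84), Ripk2 (5.27), Ifi205 (-0.20), Relb (3.24), Nfkb2 (4.00), Nfkb1 (4.77), Tnfaip3 (4.37), Nfkbie (2.36), Tnfaip2 (4.70), Tnf (-1.37), Mlkl (0.62), Birc3 (4.07), Birc2 (4.07), Csf1 (3.16), Il15 (-0.56), Cish (2.78), Cxcl2 (1.16), Ccl2 (2.61), Ccrl2 (2.41), Ackr1 (2.94), Cxcr2 (-1.28), Tlr2 (4.77), Nlrp3 (0.52), Myd88 (3.82), Sele (0.65), Icam1 (5.07), Egr2 (-2.54), Atf3 (-0.12), Irf1 (4.64), Maff (4.19), Gadd45b (0.59), Lcn2 (4.21), Crp (8.98), Steap4 (8.42), Gvin1 (-2.54), Ifi47 (4.78), Tgtp1 (0.18), Gbp5 (1.51), H2-Q6 (3.22), Ngp (-2.15), Il7 (-6.52), Ccl20 (-6.52), Nr4a3 (-3.96) and Ccl4 (-3.08). It was far above them for Cyp7a1 (4.72).

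PiZ 4, the library with 19.9% mitochondrial reads, was far below the other 4 PiZ libraries for Pirt (0.82), H2-T22 (7.04), H2-Eb1 (5.18), Apoe (13.61), Derl3 (3.67), Fkbp11 (4.35), Ppp1r15a (2.58) and H2-Aa (5.47). It was far above them for Cyp4a10 (6.13). The part of the mitochondrial share in these values was not tested.

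PiZ 1 was far from the other PiZ libraries for Socs1 (2.62) and Gpnmb (6.46), PiZ 2 for Igkc (5.02), PiZ 3 for Ctss (7.87) and PiZ 5 for Csf2ra (3.12). WT TNFa 1 was far from the other TNFa libraries for Fkbp11 (3.99), and WT TNFa 3 for Vmn2r3 (-4.23). The other 5 TNFa libraries had no reads of Vmn2r3, so that flag rests on few reads.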

How the results depend on the processing

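The scale decided the balance of calls. As deposited, 6245 genes were higher in PiZ and 1091 after TNFa. The counts were 2839 and 2979 with a shift to one median, 2842 and 2847 with quantile normalization, and 2999 and 2901 with voom on recovered reads. With the shift they were 3048 and 3035 without WT TNFa 4, and 2793 and 3122 without PiZ 4, the last chosen after seeing the data. With all 22 libraries in the fit they were 2902 and 404, 3306 in all. Without each library in turn they ran from 5451 to 7169 for PiZ and from 952 to 1219 for TNFa. With the replicate block, which the numbers do not support (correlations of same-numbered libraries -0.14 to 0.29), they were 5310 and 1041. No filter gave 7564 and 1167, and the stricter filter 4705 and 903. Among named genes, 3323 values kept direction and call, 99 lost the call and 9 gained it. The difference of Nr4a3 (0.04 toward PiZ) was the 1 that reversed: -0.37 with the shift, -0.93 with quantile normalization, -0.44 with voom, -0.31 with log2(CPM + 1) and -0.56 with library weights. Without each library in turn it ran from -0.95 (without WT TNFa 4) to 0.33, below 0 also without PiZ 1 or PiZ 2. It was -1.36 without WT TNFa 4 on the shifted scale and -0.47 without PiZ 4 on that scale. The cause was not tested. Depth limits genes near 0 log2 CPM, where 1 CPM stands for 35.5 to 50.4 reads.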
